A study of Mus musculus with 6 samples.

Results

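Plasma membrane amino acid transporters of the liver were taken as the genes whose symbols place them in the solute carrier families SLC1, SLC3, SLC6, SLC7, SLC36, SLC38 and SLC43. Left out were 2 genes of these families, Slc1a2 and Slc7a11, and rows of antisense or pseudogene names. The rule found 53 genes among the 28880 of the table. Liver RNA had been sequenced in 3 control mice and 3 acute ethanol-exposed mice, all wild type males of the C57BL/6J strain aged 6 to 8 weeks and all labelled as 1 batch. Ethanol was gavaged once, as a 50% (v/v) solution and at 6 g/kg, after a 12 h fast, and livers of these mice were taken 24 h later. Control mice received no ethanol. The sources used here do not say whether they were fasted or gavaged with a vehicle, so the ethanol, the fast and the gavage cannot be told apart. Labels name a separate mouse for each library.

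Amino acid transporters move amino acids and related small molecules across membranes, some by coupling to sodium or protons and others by exchanging one amino acid for another. The liver takes up amino acids from portal blood for protein synthesis, gluconeogenesis and urea formation. Sodium-coupled system A carriers and the cationic carrier of hepatocytes are known to respond to hormones, fasting and amino acid supply. Light chains of the SLC7 family reach the cell surface only when bound to a heavy chain of the SLC3 family. The family names hold more than their label: the SLC6 family includes carriers of creatine, taurine, betaine and monoamines, Slc43a3 carries purine nucleobases, and several SLC36 and SLC38 proteins act mainly on lysosomes or other inner membranes.

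Libraries held 60514417 to 74210869 counted reads. Levels are given as FPKM (fragments relative to transcript length and sequencing depth, as deposited) and differences as CPM (counts scaled to library size after TMM, which corrects for a few very abundant genes). The TMM factors were 0.768 to 0.836 for the exposed livers and 1.26 to 1.27 for control livers, so a gene can fall in FPKM and rise in CPM. Over all genes tested the log2 fold change had a median of -0.04 with these factors and of -0.71 with library size alone. The summed CPM of the hepatocyte markers ran from 136900 to 139600 in the exposed livers and from 74500 to 86380 in control livers, with 2 of the 9 markers in the table upregulated and 0 downregulated. Neutrophil markers summed to 3.546, 4.235 and 16.47 CPM in ethanol replicates 1 to 3 against 1.15 to 1.79, with 5 of 6 tested upregulated. Erythroid markers summed to 580 to 864 against 182 to 222, with 4 of 6 tested upregulated. Sums of Kupffer cell markers (120 to 162 against 144 to 160), sinusoidal endothelial markers (115 to 194 against 180 to 196) and cholangiocyte markers (74.3 to 89.4 against 49.2 to 91.7) overlapped between the groups, while stellate cell markers did not (237 to 277 against 207 to 233). By single genes, 1 sinusoidal endothelial marker was upregulated and 4 were downregulated, and 0 and 2 stellate cell markers, the latter against the direction of their sum. The sum of T cell markers was lower in ethanol-exposed mice (0.785 to 1.48 against 2.61 to 3.25). So were those of B cell markers (4.27 to 6.29 against 6.48 to 8.50) and pancreatic acinar markers (9.75 to 11.8 against 17.7 to 22.2). Downregulated were 1 of 5 tested T cell markers, 1 of 10 B cell markers and 0 of 2 tested acinar markers, with 0 upregulated in these lists. All these marker sums are TMM-scaled CPM, so their overlap and direction can depend on the factors above. Sums with library size alone were not made. The part of all these cell types in the results below was not tested. In bulk liver fewer cells of a type and less RNA per cell cannot be told apart. Ethanol replicate 3 stood apart from the other ethanol-exposed mice, with a correlation of log2 CPM over genes of 0.969 to 0.973 where other pairs within a group had at least 0.990. It was the highest ethanol library for 15 of the transporters tested and the lowest for 14.

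Of the 53 genes, 32 passed the filter on low counts and were compared by the quasi-likelihood test of edgeR, with p-values adjusted by Benjamini-Hochberg over all 16717 genes tested. Genes were called DEGs at an adjusted p under 0.05 with an up or down log2 fold change beyond 1, and SE stands for the standard error of that log2 value. In ethanol-exposed mice 9 transporters were upregulated and 2 were downregulated, 34.4% of those tested, where 24.2% of all genes were DEGs. The upregulated share was 28.1% against 10.4% of all genes, and the downregulated share was 6.25% against 13.8%. The median log2 fold change of the 32 transporters was 0.11. All 11 DEGs kept their direction under every alternative that tested them and their call with any library left out, and 6 of them kept the call under all alternatives. Library size alone gave 8 upregulated and 8 downregulated transporters, under a scaling that called 846 and 5385 of all genes. Upregulated were the system A carriers Slc38a2 and Slc38a4, the cationic carrier Slc7a2, the light chain Slc7a6, Slc43a1, Slc43a3, Slc36a4, the glycine carrier Slc6a9 and the creatine carrier Slc6a8. Slc36a1 and Slc38a6 were downregulated. With the adjusted p alone as the rule, 17 transporters passed (53.1%), 13 higher and 4 lower, against 43% of all genes, 21.5% higher and 21.5% lower. The 3 ethanol-exposed and 3 control mice did not overlap in CPM for 21 transporters (65.6%), against 59.0% of all genes.

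**Figure D1:**
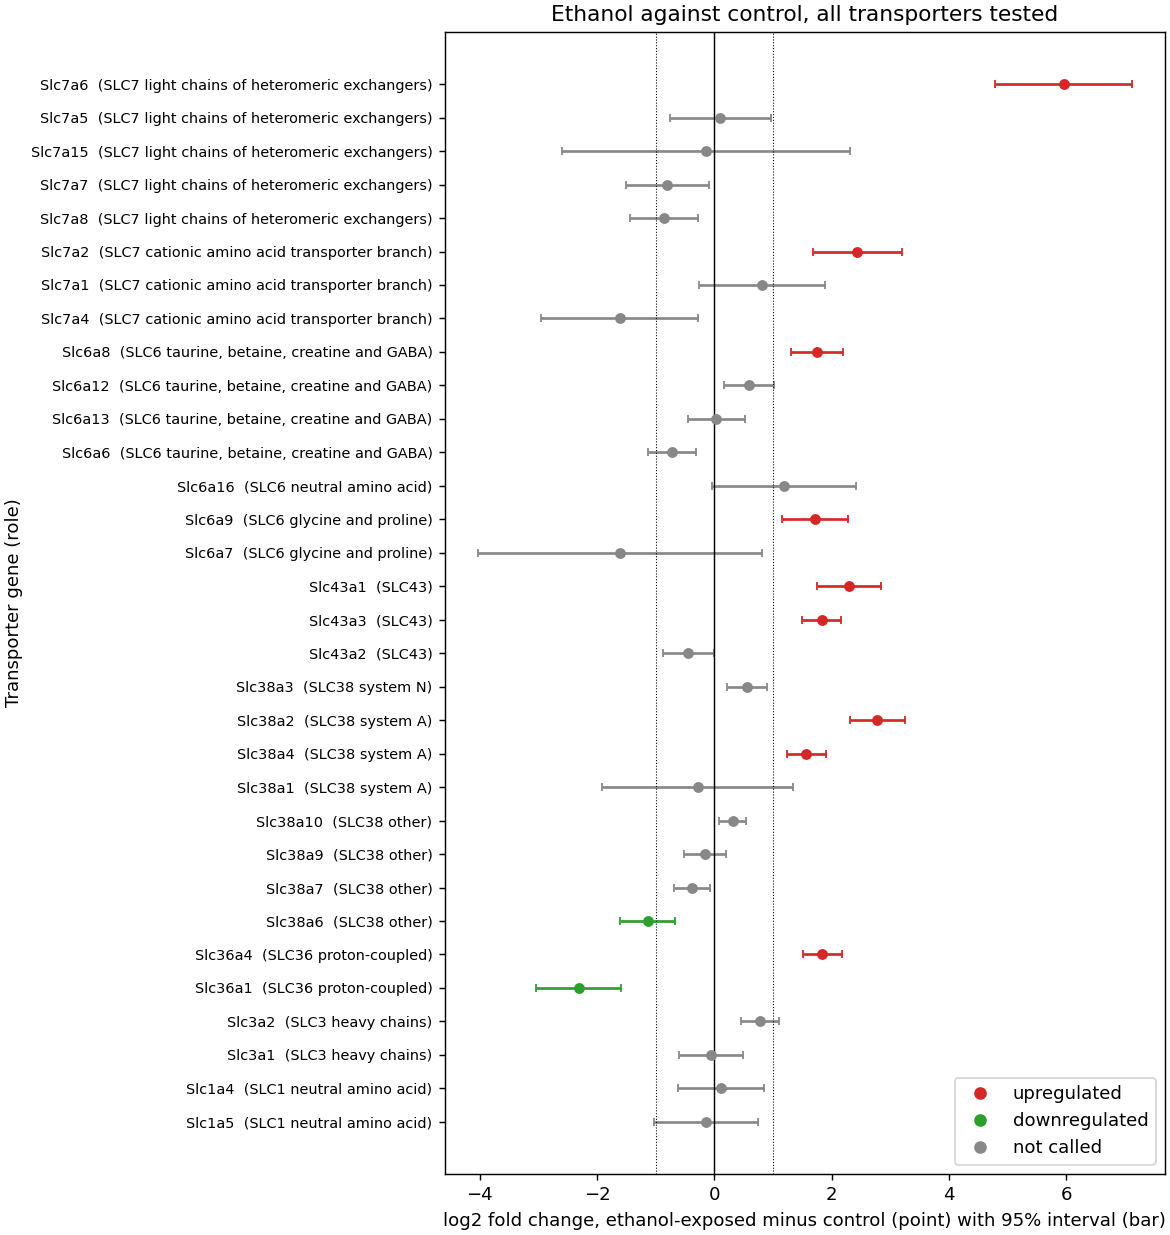
Log2 fold change (x axis) of the 32 transporters tested, grouped by role (y axis), with points for the estimate and bars for its 95% interval, and dotted lines at a log2 fold change of 1 in either direction. Slc7a6 lies far to the right of the others at 5.95, and Slc36a1 farthest to the left at -2.31.

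The upstream sequences of the largest rise, of the most induced system A carrier and of the largest fall in the edgeR test are shown. They are the 250 bases before the RefSeq start in GRCm38.p6. They were searched on both strands for TGATGNAAN, the core of an amino acid response element bound by ATF4 with C/EBP partners, and for CACGTG, the E-box core read by clock and TFEB-type factors, a motif added after the data were seen. The capitals mark CACGTG in Slc36a1, which lay 31 to 26 bases before the start, and the other sequences held neither motif.
Slc7a6, chr8:106168604-106168853, plus strand: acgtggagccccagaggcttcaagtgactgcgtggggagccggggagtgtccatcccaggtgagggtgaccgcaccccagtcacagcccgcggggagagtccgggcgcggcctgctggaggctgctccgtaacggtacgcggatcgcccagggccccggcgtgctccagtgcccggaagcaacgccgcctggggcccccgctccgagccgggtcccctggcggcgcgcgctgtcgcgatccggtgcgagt
Slc38a2, chr15:96699729-96699978, minus strand: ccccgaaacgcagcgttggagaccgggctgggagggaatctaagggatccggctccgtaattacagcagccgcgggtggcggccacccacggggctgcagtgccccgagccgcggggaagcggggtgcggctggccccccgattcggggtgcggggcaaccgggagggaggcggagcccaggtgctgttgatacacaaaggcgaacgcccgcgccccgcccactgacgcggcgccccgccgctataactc
Slc36a1, chr11:55204090-55204339, plus strand: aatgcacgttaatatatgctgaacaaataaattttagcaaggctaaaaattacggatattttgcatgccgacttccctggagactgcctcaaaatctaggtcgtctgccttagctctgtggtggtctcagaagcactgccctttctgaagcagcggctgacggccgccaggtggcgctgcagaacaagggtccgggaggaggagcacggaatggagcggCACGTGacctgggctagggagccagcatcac
The RefSeq table matched 38 of the 53 transporters with 58 promoters, and 8 of the 11 DEGs with 13. TGATGNAAN was found in 0 of the 13 promoters of DEGs and in 3.44% of all 32851 promoters, and CACGTG in 2 of the 13, those of Slc36a1 and Slc43a1, which moved in opposite directions, and in 6.02% of all promoters. Of the 58 promoters of transporters, DEGs or not, 3 (5.17%) held TGATGNAAN and 8 (13.8%) held CACGTG. No match says only that these letters are not in this window.

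In control livers the transporter pool was dominated by sodium-coupled carriers of small neutral amino acids. Slc38a4 (ENSMUSG00000022464, chromosome 15, 96892701 to 96953837 in the table's coordinates), a system A carrier largely of liver, stood at 234, 198 and 194 FPKM in control replicates 1 to 3. Slc38a3 (ENSMUSG00000010064, chromosome 9, 107527833 to 107546212), the system N carrier of glutamine, histidine and asparagine, stood at 243, 187 and 191 FPKM. These levels did not differ beyond the spread between control mice. Next were Slc6a13, a GABA and taurine carrier, at 71.7 FPKM, Slc7a2 at 39.8, Slc3a1 at 23.2, the betaine carrier Slc6a12 at 22.5, Slc38a2 at 16.8 and Slc38a10 at 15.1 (means, n = 3). The ranges of Slc3a1 (20.3 to 26.5 FPKM) and Slc6a12 (20.9 to 24.8) overlapped, as did those of Slc38a2 (14.95 to 18.45) and Slc38a10 (14.6 to 15.8).

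**Figure D2:**
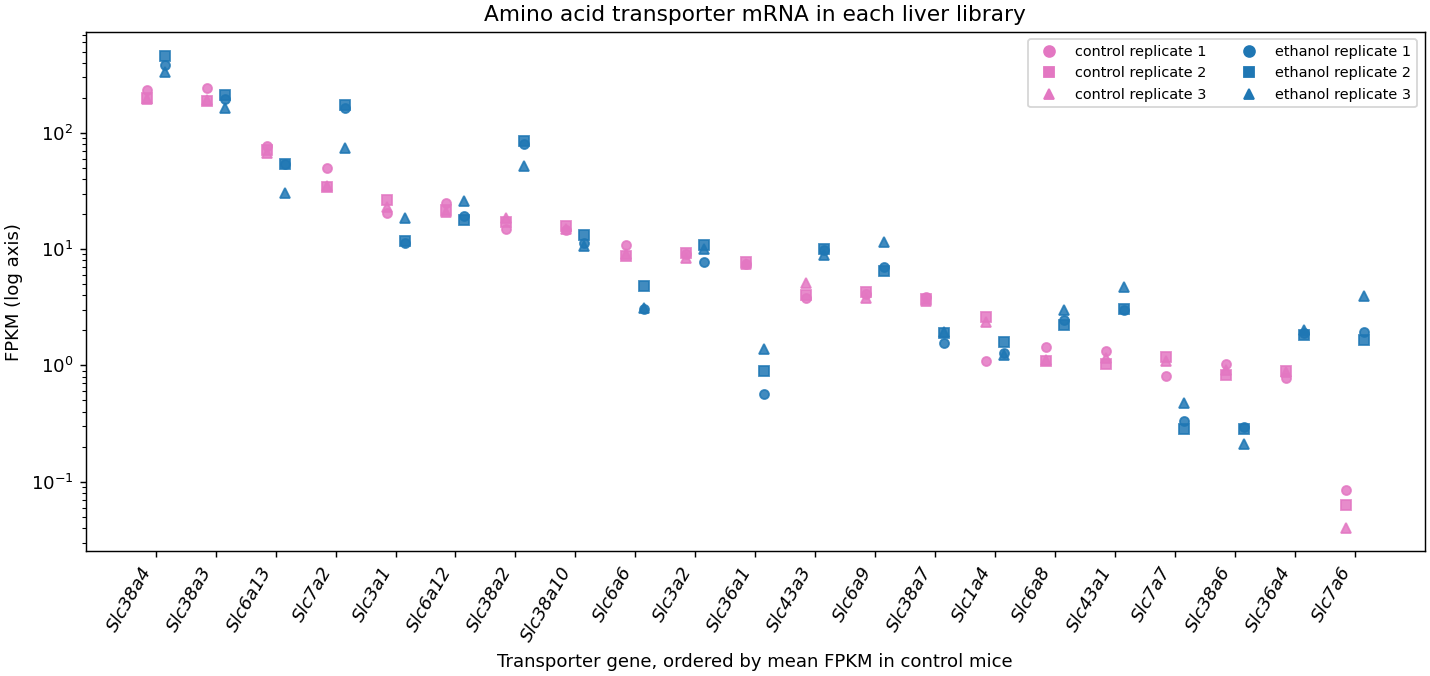
FPKM on a log axis (y axis) of the 21 transporters named by level or call, in order of their mean level in control mice (x axis), with 1 point per library, control in pink and ethanol-exposed in blue. Levels run from Slc38a4, at 194 FPKM or more in every library, down to Slc7a6, under 0.09 FPKM in control mice.

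System A carriers take up alanine, serine and other small neutral amino acids with sodium. Slc38a2 (ENSMUSG00000022462, chromosome 15, 96585273 to 96597611), the member known for its induction by amino acid shortage, stood at 80.1, 85.3 and 51.9 FPKM in ethanol replicates 1 to 3 and at 14.95, 16.95 and 18.45 in control replicates 1 to 3. Every ethanol-exposed mouse lay above every control mouse, ethanol replicate 3 being the lowest of the exposed. Its CPM rose 6.84-fold, a log2 fold change of 2.77 (SE 0.20, adjusted p = 0.000166). Slc38a4 was at 380, 459 and 331 FPKM in ethanol-exposed mice, above all control values given earlier. It rose 2.97-fold in CPM, from 754 ± 78.0 to 2237 ± 269 (SD, n = 3), with a log2 fold change of 1.57 (SE 0.14, adjusted p = 0.000331). With library size alone as the scaling, that change was 0.91 and fell below the threshold on the fold change. Slc38a1, a neighbour of both on chromosome 15, had only 15 to 82 counts per library and a log2 fold change of -0.29 (95% interval -1.91 to 1.34, adjusted p = 0.76). The start-to-end gap between Slc38a1 and Slc38a2 is 45.0 kb and that between Slc38a2 and Slc38a4 is 295 kb, so the 3 genes lie in one stretch on the same strand.

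System N works in either direction and serves glutamine release as well as uptake. Slc38a3 was at 194, 213 and 164 FPKM in ethanol-exposed mice, within or below the control values. In CPM it was higher, 1356 ± 128 against 926 ± 136 (SD, n = 3), with a log2 fold change of 0.55 (SE 0.14, adjusted p = 0.0198), short of the threshold on the fold change. That difference was -0.12 with library size alone, so its direction depended on the scaling. Slc38a5, the other system N gene, had 0 to 9 counts and was not tested.

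Ratios within a library do not depend on how libraries were scaled, and the pairs compared in this way were chosen after their values were seen. The FPKM ratio of Slc38a4 to Slc38a3 was 1.95, 2.16 and 2.02 in ethanol-exposed mice and 0.965, 1.06 and 1.02 in control mice. Near parity in every control liver thus gave way to an excess of Slc38a4 in every exposed liver. The ratio of Slc38a2 to Slc38a4 was 0.185 ± 0.0272 against 0.0815 ± 0.0161 (SD, n = 3), so Slc38a2 also gained on Slc38a4. Of all transporter FPKM, system A held 48.1% to 50.6% in exposed livers and 34.3% to 34.6% in control livers, and Slc38a3 held 19.8% to 21.6% against 30.1% to 33.4%. The GABA, taurine, betaine and creatine carriers held 7.33% to 8.27% against 15.7% to 16.5%. These shares did not overlap between the groups. As parts of a whole, they can fall where other members rise, so a smaller share does not show a lower level. No test was made for shares or ratios. Summed transporter FPKM was 957, 1076 and 762 in ethanol-exposed mice and 728, 622 and 614 in control mice.

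**Figure D3:**
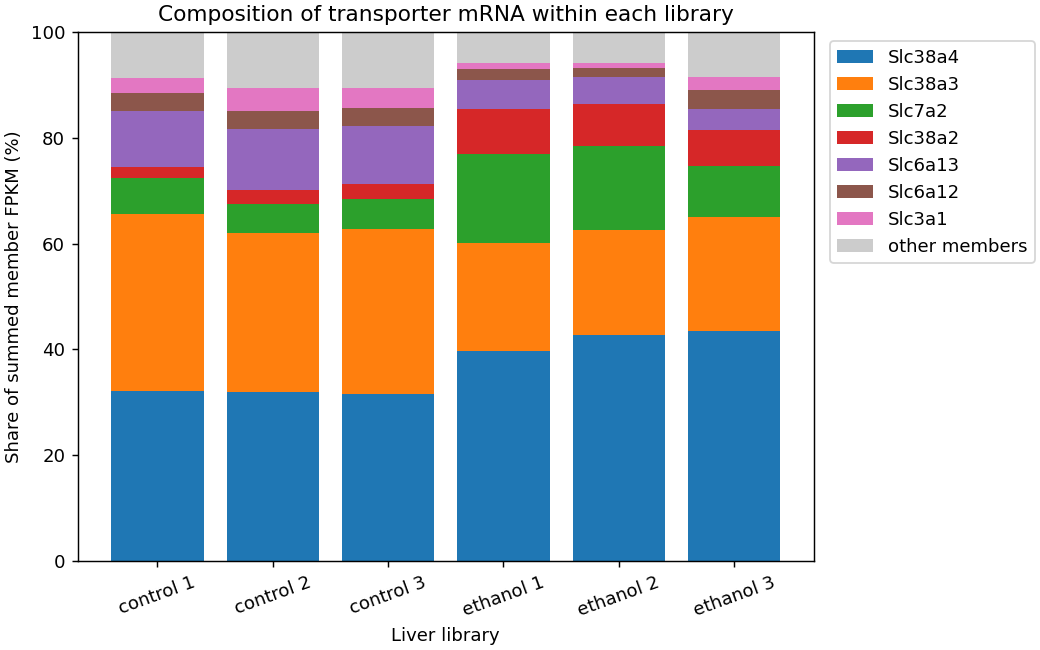
Share of summed transporter FPKM in percent (y axis) held by 7 abundant carriers and by the other members, as stacked bars for each of the 6 libraries (x axis). Slc38a4, Slc7a2 and Slc38a2 take a larger share in every ethanol-exposed mouse, and Slc38a3 and Slc6a13 a smaller one.

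Cationic carriers of the SLC7 family bring in arginine, lysine and ornithine. Slc7a2 (ENSMUSG00000031596, chromosome 8, 41315433 to 41375345), the form typical of hepatocytes, stood at 162, 172 and 73.9 FPKM in ethanol replicates 1 to 3 and at 50.0, 34.5 and 34.9 in control replicates 1 to 3. The groups did not overlap, although ethanol replicate 3 lay closer to the control mice than the others did. Its CPM rose 5.42-fold, a log2 fold change of 2.44 (SE 0.32, adjusted p = 0.00143), or 2.74 without ethanol replicate 3. Its share of transporter FPKM was 16.98%, 16.02% and 9.70% against 5.54% to 6.88% in control mice. The widely expressed Slc7a1 was low, at 35 to 83 counts per library, with a log2 fold change of 0.81 (95% interval -0.27 to 1.88, adjusted p = 0.193). Slc7a4, of unsettled substrate, had 97 to 111 counts in control mice and 10, 16 and 42 in exposed mice, a log2 fold change of -1.61 that missed the threshold on the adjusted p (0.0556). Slc7a3 had 0 to 9 counts.

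Heteromeric exchangers pair a light chain with a heavy chain. In the edgeR test the largest change of any transporter was that of Slc7a6 (ENSMUSG00000031904, chromosome 8, 106895489 to 106925338). It is the light chain of y+LAT2, which exchanges cationic for neutral amino acids. It had 701, 594 and 1368 counts in ethanol replicates 1 to 3 and 32, 19 and 13 in control replicates 1 to 3, or 1.93, 1.66 and 3.93 FPKM against 0.0853, 0.0632 and 0.0401. All exposed mice lay far above all control mice, ethanol replicate 3 being the highest. The log2 fold change was 5.95 (SE 0.50, adjusted p = 0.000245), 61.9-fold, and 5.45 without ethanol replicate 3. On the log2(FPKM + 1) scale of limma, which understates the change of low genes, it was 1.67. On that scale the estimates of Slc38a2 (2.019) and Slc36a1 (-2.154) were larger in size, and that of Slc7a2 (1.677) was much the same. No other gene of the table overlaps Slc7a6. Its closest relative Slc7a7, the light chain of y+LAT1, stood at 0.335, 0.285 and 0.474 FPKM in ethanol-exposed mice and at 0.806, 1.18 and 1.08 in control mice. Its groups did not overlap in the opposite direction, but the log2 fold change of -0.80 (SE 0.30, adjusted p = 0.066) missed the thresholds. Without ethanol replicate 3 it became a DEG at -1.05 (adjusted p = 0.0153), as it did with library size alone at -1.48 (adjusted p = 0.004). The FPKM ratio of Slc7a6 to Slc7a7 was 5.77, 5.82 and 8.30 in ethanol-exposed mice and 0.106, 0.0535 and 0.0371 in control mice, so Slc7a7 was the more abundant in every control liver and Slc7a6 in every exposed liver.

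The heavy chain of both is Slc3a2, also known as 4F2hc. Slc3a2 stood at 7.74, 10.9 and 10.1 FPKM in ethanol-exposed mice and at 9.09, 9.29 and 8.35 in control mice, overlapping on that scale. In CPM it was higher in every exposed mouse, 45.7 ± 6.88 against 26.7 ± 1.45 (SD, n = 3), with a log2 fold change of 0.77 (SE 0.14, adjusted p = 0.00402), below the threshold on the fold change, and 0.11 with library size alone. Other light chains that pair with it were scarce among the members, from which the rule leaves out Slc7a11. Slc7a5, the large neutral amino acid exchanger LAT1, had 73 to 186 counts per library and a log2 fold change of 0.10 (95% interval -0.76 to 0.96, adjusted p = 0.844). Slc7a8, or LAT2, had 192 to 215 counts in control livers and 70 to 91 in exposed livers, a log2 fold change of -0.86 (adjusted p = 0.0281), short of the threshold on the fold change. The ratio of Slc7a6 to Slc3a2 FPKM moved from 0.00700 ± 0.00229 to 0.263 ± 0.119 (SD, n = 3).

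The other heavy chain showed a different picture. Slc3a1, or rBAT, known from cystine transport in the kidney, was at 20.3, 26.5 and 22.9 FPKM in control mice and at 11.4, 11.7 and 18.7 in ethanol-exposed mice. On the CPM scale the groups overlapped, with a log2 fold change of -0.06 (SE 0.23, adjusted p = 0.848) that was -0.74 with library size alone (adjusted p = 0.0223), -0.35 without ethanol replicate 3 and 0.05 to 0.08 without either of the other exposed mice. Its known light chains were nearly absent. Slc7a9 had 2 counts in a single control library and 0 in the others, and Slc7a13 had 0 counts in all 6 libraries. The table lists Slc7a9 with a retained intron transcript alone, which limits what its count shows. Of the other light chains, Slc7a15 had 0 to 17 counts and Slc7a10 at most 3.

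**Figure D4:**
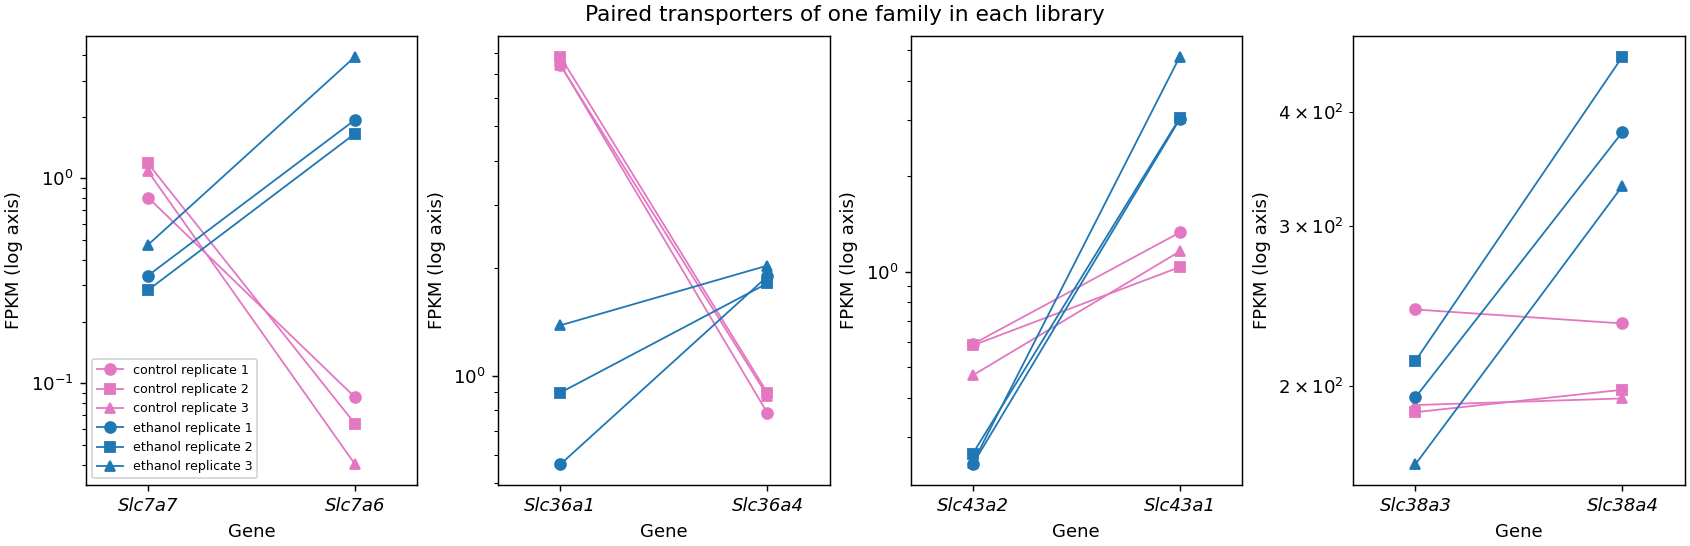
FPKM on a log axis (y axis) of pairs of relatives (x axis) in each library, with lines joining the values of 1 library, control in pink and ethanol-exposed in blue. The lines of Slc7a7 and Slc7a6 and of Slc36a1 and Slc36a4 slope down in control mice and up in ethanol-exposed mice.

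Proton-coupled carriers of the SLC36 family export or take up small amino acids such as glycine, alanine and proline. Slc36a1 (ENSMUSG00000020261, chromosome 11, 55095176 to 55127156), found on lysosomes and at the cell surface and tied to mTORC1 activation, had 0.565, 0.896 and 1.38 FPKM in ethanol replicates 1 to 3 and 7.43, 7.82 and 7.40 in control replicates 1 to 3. The control values were tight and all exposed values lay well below them. It was 4.97-fold lower in CPM, a log2 fold change of -2.31 (SE 0.31, adjusted p = 0.0014). Slc36a4 (chromosome 9, 15621034 to 15654657), a high-affinity carrier of proline and tryptophan of inner membranes, went the other way, from 0.786, 0.894 and 0.878 FPKM in control mice to 1.90, 1.81 and 2.03 in ethanol-exposed mice. It rose 3.58-fold in CPM, with a log2 fold change of 1.84 (SE 0.14, adjusted p = 0.000198), and with limma on log2(FPKM + 1) it was at 0.65 and lost its call. The FPKM ratio of Slc36a4 to Slc36a1 was 3.36, 2.02 and 1.47 in ethanol-exposed mice against 0.106 to 0.119 in control mice. Slc36a2, 19.3 kb from Slc36a1, had 5 counts in 1 control library and 0 elsewhere.

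SLC43 proteins are facilitators that need no ion gradient. Slc43a1 (chromosome 2, 84669194 to 84693938), or LAT3, carries leucine and other branched-chain amino acids and stood at 3.03, 3.05 and 4.76 FPKM in ethanol-exposed mice and at 1.33, 1.03 and 1.16 in control mice. Its log2 fold change was 2.30 (SE 0.23, adjusted p = 0.000487), 4.93-fold. Slc43a3 (chromosome 2, 84766923 to 84788853), the purine nucleobase carrier that starts 73.0 kb after it, was at 9.79, 9.97 and 8.95 FPKM against 3.77, 4.01 and 5.10, a log2 fold change of 1.83 (SE 0.14, adjusted p = 0.000198). Both neighbours thus rose with no overlap between the groups. Slc43a2, or LAT4, on chromosome 11 had 333 to 475 counts in control livers and 191 to 211 in exposed livers, with a log2 fold change of -0.44 (95% interval -0.87 to -0.01, adjusted p = 0.0873).

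The SLC6 family uses sodium and chloride. Slc6a9 (chromosome 4, 117691703 to 117732395), the glycine carrier GlyT1, was at 7.05, 6.49 and 11.4 FPKM in ethanol-exposed mice and at 4.10, 4.27 and 3.84 in control mice. It rose 3.28-fold in CPM, a log2 fold change of 1.72 (SE 0.24, adjusted p = 0.00172), that was 0.84 to 0.97 and below the threshold with limma on log2 FPKM. It overlaps B4galt2, Ccdc24 and Gm17114 on the opposite strand, whose reads could not be told apart without strand. Slc6a8 (chromosome X, 72716756 to 72726108), which carries creatine, was at 2.468, 2.245 and 2.995 FPKM against 1.43, 1.10 and 1.12, a log2 fold change of 1.75 (SE 0.19, adjusted p = 0.000642), which limma on log2(FPKM + 1) put at 0.69, below the threshold. In both genes every exposed mouse lay above every control mouse.

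Carriers of osmolytes and GABA did not move as one. Slc6a6, the taurine carrier, stood at 3.04, 4.83 and 3.13 FPKM in exposed livers and at 10.8, 8.77 and 9.13 in control livers, with a log2 fold change of -0.72 (SE 0.17, adjusted p = 0.0145) that was within the threshold on the fold change. With library size alone it was -1.38 and passed. Slc6a13 stood at 54.2, 54.0 and 30.6 FPKM against 77.1, 70.9 and 67.2, and in CPM its groups overlapped, with a log2 fold change of 0.03 (95% interval -0.45 to 0.52, adjusted p = 0.91) whose sign changed with the scaling. Its neighbour Slc6a12, 5.34 kb away on chromosome 6, had 19.4, 17.9 and 26.2 FPKM against 24.8, 21.8 and 20.9, and a log2 fold change of 0.59 (SE 0.18, adjusted p = 0.0344), or -0.09 with library size alone. The FPKM ratio of Slc6a12 to Slc6a13 was 0.358 and 0.331 in ethanol replicates 1 and 2, near the 0.308 to 0.322 of control mice, and 0.855 in ethanol replicate 3. That library held both the lowest Slc6a13 and the highest Slc6a12 of the exposed mice.

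Among SLC38 genes outside systems A and N, Slc38a6 (chromosome 12, 73333553 to 73400823), whose substrates are not settled, had 0.293, 0.285 and 0.210 FPKM in ethanol-exposed mice and 1.04, 0.822 and 0.915 in control mice. It was 2.20-fold lower in CPM, a log2 fold change of -1.14 (SE 0.20, adjusted p = 0.00412), and at -0.95 fell short of the threshold once the trend with transcript length was removed. Slc38a7, a lysosomal glutamine carrier, was at 1.55, 1.92 and 1.92 FPKM against 3.84, 3.74 and 3.61, a log2 fold change of -0.38 (adjusted p = 0.0535). With library size alone it was a DEG at -1.05 (adjusted p = 0.000779). Slc38a9, the lysosomal arginine sensor of mTORC1, overlapped between the groups in CPM at a log2 fold change of -0.16 (95% interval -0.51 to 0.20, adjusted p = 0.434). Slc38a10 was higher in CPM in every exposed mouse, at 102 ± 6.41 against 82.2 ± 3.44 (SD, n = 3). That gave a log2 value of 0.31 (adjusted p = 0.0376), or -0.36 with library size alone. Slc38a11 had 0 to 25 counts.

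Neither SLC1 carrier tested was a DEG. Slc1a4, or ASCT1, which exchanges alanine, serine and cysteine, was at 1.28, 1.60 and 1.23 FPKM against 1.10, 2.59 and 2.35, control replicate 1 lying below every exposed mouse. Its log2 fold change was 0.12 (95% interval -0.62 to 0.85, adjusted p = 0.785), and -0.18 without control replicate 1. Slc1a5, or ASCT2, the glutamine exchanger of proliferating cells, showed the same low control replicate, with 165 counts beside 364 and 321 in the other control mice and 136 to 224 in exposed mice (log2 fold change -0.14, adjusted p = 0.778). The glutamate carriers Slc1a1, Slc1a3, Slc1a6 and Slc1a7 had 0 to 36 counts and were not tested. Slc1a2 is left out by the rule and is not reported here.

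The remaining members were scarce. In all, 21 of the 53 genes failed the filter, of which 3 had no count in any library, Slc6a3, Slc6a15 and Slc7a13, and 18 had at most 36 counts and 0.0813 FPKM in any library. They include the monoamine carriers Slc6a2, Slc6a3 and Slc6a4 and the neutral amino acid carriers Slc6a14, Slc6a17, Slc6a19, Slc6a20a, Slc6a20b and Slc6a21. Of the tested members not yet given, Slc6a16 had 28 to 127 counts (log2 fold change 1.19, adjusted p = 0.104) and the proline carrier Slc6a7 had 0 to 36 counts (log2 fold change -1.61, adjusted p = 0.245).

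Genes that act beside these carriers were described from 3 lists. Of the 27 tested genes of the amino acid starvation response, in which the kinase GCN2 raises translation of the factor ATF4, 8 were upregulated and 2 downregulated, where 10.4% and 13.8% of all genes were. The median log2 fold change of the list was 0.23 against -0.04 over all genes tested. Library size alone gave 5 upregulated and 7 downregulated genes of this list, beside 846 and 5385 of all 16717 genes. The 3 largest rises were those of Atf3, a stress factor, with a log2 fold change of 7.47 (SE 1.32, adjusted p = 0.00418), of Chac1, which degrades glutathione, at 5.12 (adjusted p = 0.000481), and of Ddit4, an mTORC1 inhibitor, at 3.54 (adjusted p = 0.0019). Atf3 stood at 226, 365 and 10.8 CPM in ethanol replicates 1 to 3 against 0.668 to 1.97 in control mice, while Chac1 was highest in ethanol replicate 3, at 24.3, 13.2 and 49.2 against 0.777 to 0.945. Atf4 itself was at 102, 97.6 and 189 CPM against 86.0 to 90.3, a log2 fold change of 0.55 (adjusted p = 0.116). Its target Asns, which makes asparagine, was at 3.32, 3.06 and 7.28 CPM against 0.767 to 3.10, and also missed the test (log2 fold change 1.24, adjusted p = 0.109). Downregulated were Cebpg at -1.29 (adjusted p = 0.00142) and Mthfd2 of mitochondrial folate metabolism at -1.39 (adjusted p = 0.0191).

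Of the 39 tested genes that carry amino acid signals to mTORC1, 2 were upregulated and 4 downregulated (median log2 fold change -0.13). Both are smaller shares than the 10.4% and 13.8% of all genes. Without ethanol replicate 3 the list had 4 upregulated and 4 downregulated genes, beside 1920 and 2902 of all 17622 genes then tested. Castor1, a cytosolic arginine sensor, stood at 5.02, 5.74 and 3.45 CPM in exposed livers and at 1.13 to 1.23 in control livers and rose by 2.01 on the log2 scale (adjusted p = 0.00122). Sesn1, a leucine sensor of the sestrin family, rose by 1.63 (adjusted p = 0.0107), with 15.4 CPM in ethanol replicate 3 against 39.4 and 45.9 in the other exposed mice and 10.8 to 10.9 in control mice. The largest falls were those of Mlst8, a subunit of the mTOR complexes, at -2.29 (adjusted p = 0.00688), Wdr59 of the GATOR2 complex at -1.16 (adjusted p = 0.0166) and Tbc1d7 of the TSC complex at -1.13 (adjusted p = 0.00446). With library size alone 16 genes of this list were downregulated and 1 upregulated, beside the 5385 and 846 of all 16717 genes given earlier. Of 12 tested carriers and accessory proteins of other families, the lysosomal cystine exporter Ctns rose by 1.03 (adjusted p = 0.0026) and the lysosomal nucleoside carrier Slc29a3 fell by 1.38 on the log2 scale (adjusted p = 0.00297). Under 7 of the 17 alternatives the list again had 1 upregulated gene, and under the others it had 0. Its downregulated count was again 1 under 8 of the 17 and ran from 0 to 4 over all of them.

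**Figure D5:**
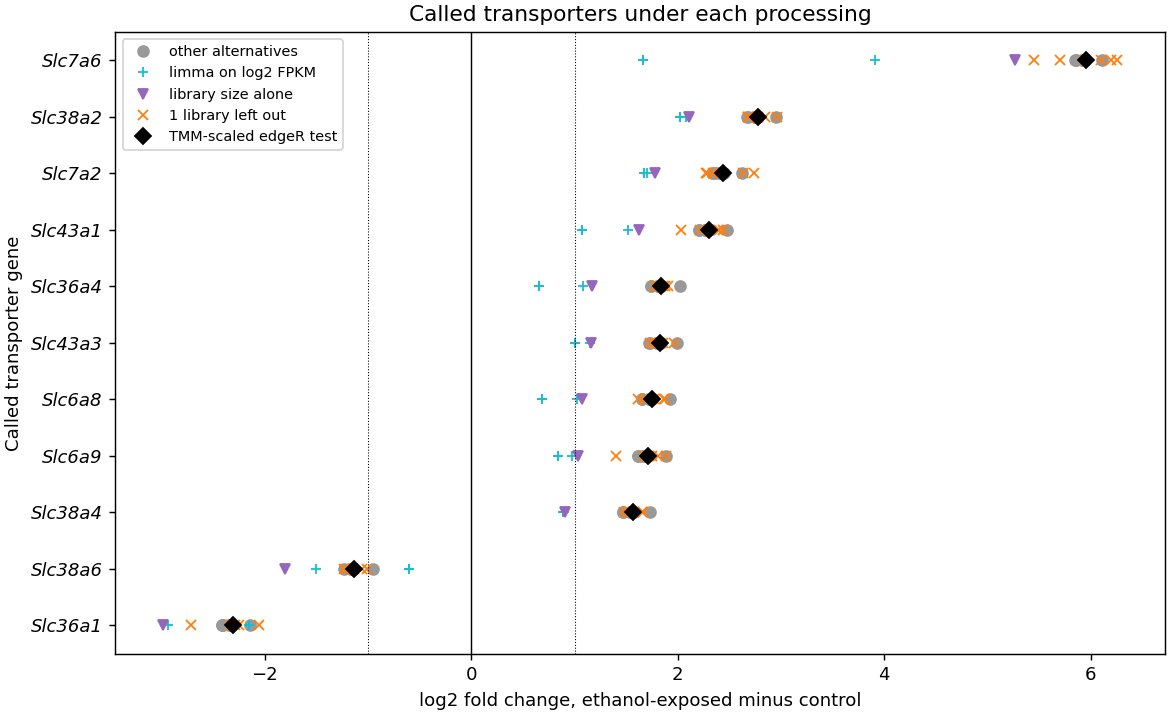
Log2 fold change (x axis) of the 11 called transporters (y axis) in the TMM-scaled edgeR test (diamonds) and under the alternatives, with dotted lines at a log2 fold change of 1 in either direction. Each gene stays on its side of 0, and limma on log2 FPKM and library size alone give the smallest rises.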

How the data were processed

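For each liver library the authors deposited a whole-number count per gene, not normalized, and an FPKM value scaled to transcript length and library size. By the study's methods, reads were paired-end and were cleaned of adaptors and poor bases before alignment. The aligner, counting software and strand setting are not given in the sources used here. The submitters' processing notes name GRCm38 and mm10. Yet 1 of 53 transporters had the same start and end as in that build's GENCODE M21 annotation. Gene coordinates are therefore quoted as the deposited table gives them. Those of the upstream sequences are in GRCm38.p6 and were kept apart from the table's. A further 1 count column of the table belongs to no library here and was not used.

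Analyses ran in R 4.3.3. Counts were filtered by filterByExpr, scaled by TMM and compared without covariates by edgeR 4.0.16 (glmQLFit and glmQLFTest, two-sided), with the fit and the Benjamini-Hochberg adjustment over all 16717 genes tested. Standard errors and 95% intervals were derived from the quasi-likelihood F. The square root of the common dispersion was 0.299. With 60514417 to 74210869 counts per library, the 3 mice per group limit the precision of well-counted genes more than counting does. For scarce genes, such as Slc7a6 with 13 to 32 counts in control mice, counting noise adds to the spread. Libraries of a group differed by more than sampling noise (the chi-square over its degrees of freedom was 49.6 to 496), and each was kept as a replicate. Overlapping genes are uncertain, as strand use is unknown.

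Alternatives were DESeq2 1.42.0, limma 3.58.1 on log2(FPKM + 1) and log2(FPKM + 0.1), other scalings and filters, the replicate number as a block, and each library left out. Tested on simulated data in which 200 genes were changed, edgeR recovered 70 of 99 tested genes changed by a log2 of 1.5 and 99 of 99 changed by 3, among 16875 genes, with 3 false calls in 172. The simulation had the common dispersion for every gene and as many rises as falls. It therefore does not cover the dependence on scaling or a library that stands apart. Transporters named are the DEGs, those with a mean of at least 1 FPKM in either group, their partners and, chosen after their values were seen, further members given by counts. Of the lists, the 3 largest called rises and falls were named, and Atf4 and Asns after their values were seen. The members and gene lists were chosen with earlier results of these data known, and roles were assigned by hand.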

Additional observations from a re-analysis of the deposited data

How the results depend on the processing

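Across 17 alternatives, 5 to 10 transporters were upregulated and 1 to 8 downregulated, against 9 and 2. Limma on log2(FPKM + 1) gave 5 upregulated, with or without its filter. Downregulated were 8 of 32 with library size alone, where 5385 of 16717 genes were, 7 of 28 with limma on log2(FPKM + 0.1), where 4965 of 16007 genes were, 1 with the trend with transcript length removed and 1 under a minimum mean of 1 FPKM. Leaving out single libraries, 9 to 10 were upregulated and 2 to 4 downregulated, 4 without ethanol replicate 3. Of the starvation response list 4 to 9 genes were upregulated and 1 to 7 downregulated, and of the mTORC1 list 0 to 4 and 1 to 16. The count at an adjusted p under 0.05 alone stayed within 13 to 23. Of the 11 DEGs, 6 kept their call under every alternative. Lost calls were those of Slc38a4 with library size alone and limma, of Slc6a9 with limma at both pseudocounts, of Slc6a8, Slc36a4 and Slc38a6 with limma on log2(FPKM + 1), and of Slc38a6 with the length trend removed.

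Of the 10 named transporters that were not DEGs, 6 changed sign somewhere. With library size alone Slc38a3 was at -0.115, Slc6a13 at -0.629, Slc6a12 at -0.088, Slc38a10 at -0.355 and Slc1a4 at -0.546. With limma on log2(FPKM + 1), filtered or not, they were at -0.116, -0.666, -0.102, -0.338 and -0.309 in that order, and with a pseudocount of 0.1 at -0.116, -0.678, -0.107, -0.361 and -0.444. Slc6a13 was also at -0.061 with upper quartile factors, -0.073 under a minimum mean of 1 FPKM, and -0.117 to -0.015 with ethanol replicate 1, ethanol replicate 2 (-0.050) or control replicate 3 left out, and reached 0.255 without ethanol replicate 3. Slc3a1 was at 0.053, 0.076 and 0.043 without ethanol replicate 1, ethanol replicate 2 and control replicate 2, and at -0.353 without ethanol replicate 3, -0.737 with library size alone, and -0.728 and -0.767 with limma at pseudocounts of 1 and 0.1, while Slc1a4 ran from -0.184 without control replicate 1 to 0.336 without control replicate 2. Among the named transporters that were not DEGs, Slc6a6, Slc7a7 and Slc38a7 became so with library size alone (-1.38, -1.48 and -1.048) and with limma on log2(FPKM + 0.1) (-1.387, -1.279 and -1.019), and Slc6a6 also with limma on log2(FPKM + 1) (-1.196). The cause of these shifts was not tested.

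The replicate numbers did not pair the samples (correlations of deviations of -0.042, -0.027 and -0.008). With the replicate block 9 transporters were upregulated and 3 downregulated, and Slc6a13 was at -0.006. The 21 transporters left untested fell below the filter on low counts. Without that filter 50 transporters were tested, and 9 were upregulated and 2 downregulated.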
